A study of Mus musculus with 4 samples.

Results

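The transcripts of 44 genes of the cell cycle and DNA replication were examined in fetal liver, out of 22911 genes with a symbol on the array. A gene was represented by the brightest of its probes, taken as the highest mean log2 intensity over the 4 arrays among the non-control probes whose transcript belonged to the gene. All 44 genes had at least 1 probe, all 44 were well above background on every array, and all 44 passed the filters on low and variable signal. Female C57BL/6J mice received a control diet (CD) or a high-fat diet (HFD) while pregnant, and the livers of their fetuses were profiled at E14.5 on 2 arrays for each diet. Fat supplied 4.3% of the energy of the CD and 60% of the energy of the HFD. Protein and carbohydrate supplied 19.2% and 67.3% in the CD, and 20% each in the HFD. All 4 samples were labelled female, which the labels do not tie to the fetuses or to the dams, and the labels name no genetic alteration in any group. The labels do not give the number of fetuses or dams behind an array, so the p-values measure only the spread between these samples, which may be technical.

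The cell cycle begins in G1, when D cyclins with Cdk4 and Cdk6, and then E cyclins with Cdk2, release E2F transcription factors from the retinoblastoma pocket proteins. E2F factors drive the genes that load the MCM helicase onto replication origins, fire the origins and supply deoxynucleotides, while the DREAM and FoxM1 complexes time the genes of G2 and mitosis. The fetal liver is the main site of blood formation at this stage, and both its erythroblasts and its hepatoblasts divide rapidly. Array signal from whole liver cannot tell fewer cells of a type from less RNA per cell.

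The authors labelled RNA with Cy3, hybridised it to a mouse array with 62976 spots and deposited a background-subtracted intensity for each spot. Each level below is a log2 intensity from which the 75th percentile over non-control probes of that array was subtracted, so that a level of 0 lies at that percentile. The slide and the scan were shared by all 4 arrays. The median intensity was between 70.2 and 120 per array, between 65.4% and 70.0% of the non-control spots were well above background, and no spot was saturated. Across the 41332 probes tested, the SD of the log2 difference was 0.58 between the CD arrays, 0.34 between the HFD arrays, and between 0.42 and 0.50 for pairs of 1 CD and 1 HFD array. The intensity of the 44 genes, before scaling, ran from 78.0 to 133898.

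Promoters are shown first, since some of the motifs near the start sites of these genes differed in frequency between their roles. RefSeq promoters of assembly GRCm38.p6, each with 250 bases before and 50 bases after the start, were matched by symbol for 34 of the 44 genes, giving 38 promoters. The 10 genes without an entry were Ccnd1, Ccnd2, Ccne2, Ccna2, Cdc25c, Aurkb, Foxm1, Mcm4, Gins1 and Gins2. Searches covered 4 motifs on both strands. An E2F-type motif was either TTCCCGC, a common form of the site, or the related form with the letters TTGGCGC. The core of the cell cycle genes homology region, to which the DREAM complex binds, was searched as TTTGAA. The site of NF-Y, a factor found at many promoters of this kind, was searched as CCAAT. This last motif overlapped the second E2F-type form in 2 promoters, those of Mcm7 and Ccnb1, and the E2F-type forms overlapped each other in 0 promoters of these genes.

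An E2F-type motif was found in 34.2% of the 38 promoters, beside 6.81% of all 32851 promoters in the table and 8.69% of the 21263 promoters of protein-coding genes. TTTGAA was found in 28.9%, beside 17.9% and 16% of these backgrounds. CCAAT was found in 68.4%, beside 37.4% and 38.2%. The E2F-type motif and TTTGAA were the more frequent in different roles, while CCAAT was frequent in both. Promoters of genes for replication and nucleotide supply held an E2F-type motif in 8 of 14 cases, CCAAT in 11 of 14 and TTTGAA in 2 of 14, those of Mcm2 and Cdc45. Promoters of genes for S, G2 and mitosis, with Mki67 and Top2a, held TTTGAA in 9 of 12 cases, CCAAT in 11 of 12 and an E2F-type motif in 3 of 12. In the G1 cyclins, their kinases and the CDK inhibitors, TTTGAA was found in 0 of 11 promoters, an E2F-type motif in 2 of 11 (Cdk2 and Cdkn2c) and CCAAT in 4 of 11. A match describes the letters of these windows and is not evidence of binding.

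The 160 bases before the start are printed 5′ to 3′ on the strand of the gene for 8 genes chosen as examples of these combinations, with every searched motif in capitals. Mcm6 (chr1:128359706-128359865, minus strand), Rrm1 (chr7:102441535-102441694, plus strand) and Cdk2 (chr10:128705052-128705211, minus strand) hold both E2F-type motifs and CCAAT. Cdk1 (chr10:69352913-69353072, minus strand), Cdc20 (chr4:118437344-118437503, minus strand) and Top2a (chr11:99024190-99024349, minus strand) show CCAAT upstream of TTTGAA. Mki67 (chr7:135716380-135716539, minus strand) holds both kinds, and Cdk4 (chr10:127063375-127063534, plus strand) holds none of the 4 motifs. A motif on the opposite strand is capitalised as its reverse complement.
Mcm6: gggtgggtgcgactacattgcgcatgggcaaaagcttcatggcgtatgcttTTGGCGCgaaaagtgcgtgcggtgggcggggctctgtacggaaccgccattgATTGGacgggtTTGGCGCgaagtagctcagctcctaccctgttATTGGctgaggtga
Rrm1: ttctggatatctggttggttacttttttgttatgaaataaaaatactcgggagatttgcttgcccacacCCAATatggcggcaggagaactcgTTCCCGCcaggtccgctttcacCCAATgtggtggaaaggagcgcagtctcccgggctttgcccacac
Cdk2: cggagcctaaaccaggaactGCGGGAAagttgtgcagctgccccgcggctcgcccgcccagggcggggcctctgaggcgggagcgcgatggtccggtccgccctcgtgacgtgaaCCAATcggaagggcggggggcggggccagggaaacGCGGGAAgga
Cdk1: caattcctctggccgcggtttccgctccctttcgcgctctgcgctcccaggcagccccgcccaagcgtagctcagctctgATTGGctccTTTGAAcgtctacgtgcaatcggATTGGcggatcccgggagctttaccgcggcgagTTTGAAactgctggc
Cdc20: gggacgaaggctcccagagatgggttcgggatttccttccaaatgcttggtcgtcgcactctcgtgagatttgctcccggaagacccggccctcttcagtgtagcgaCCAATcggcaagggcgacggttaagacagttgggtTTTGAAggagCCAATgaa
Top2a: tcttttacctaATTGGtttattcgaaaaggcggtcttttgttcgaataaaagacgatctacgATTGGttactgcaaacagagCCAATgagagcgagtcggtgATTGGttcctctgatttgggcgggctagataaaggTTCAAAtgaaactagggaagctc
Mki67: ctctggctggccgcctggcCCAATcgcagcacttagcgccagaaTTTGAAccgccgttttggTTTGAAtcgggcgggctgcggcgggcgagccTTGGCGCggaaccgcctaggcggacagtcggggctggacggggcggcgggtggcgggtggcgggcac
Cdk4: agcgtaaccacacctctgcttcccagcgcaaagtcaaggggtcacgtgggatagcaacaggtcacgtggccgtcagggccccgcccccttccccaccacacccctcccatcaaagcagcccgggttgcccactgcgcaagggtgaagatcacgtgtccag

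No gene of the 44 differed between the diets past the test. With limma, 0 of 44 had an unadjusted p under 0.05, beside 3.35% of all probes tested, and 0 of 44 passed after Benjamini-Hochberg adjustment, as did 0% of all probes. The smallest unadjusted p among the 44 was 0.0888 (Rrm2) and the smallest adjusted p was 1.00. The study's methods name unpaired t-tests for group differences in general and no test for the arrays, so applying one here is an assumption. At an unadjusted p under 0.05, this methods' t-test called 1 of 44 (Foxm1), beside 5.05% of all probes, and 0 of 44 after Benjamini-Hochberg adjustment. Limma after normexp background correction called 1 of 44 (Rrm2), beside 1.48% of all probes. Among the 1177 genes at or above the median signal of the 44, limma called 0.425%. With 2 arrays per diet, exact permutation cannot reach a p below 0.33.

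The differences were small in size. Log2 fold changes (HFD minus CD) ran from -0.27 for Aurkb to 0.37 for Rrm2, which is a range of 0.828-fold to 1.29-fold, with standard errors from 0.16 to 0.39. For 37 of the 44 genes the HFD mean lay within 1.2-fold of the CD mean. The others were Rrm2, Cdt1, Tyms, Ccnb2, Foxm1 and Cdkn2c on the higher side and Aurkb on the lower side. The 95% confidence intervals reached from -1.30 to 0.82 over all 44 genes, and for 42 of 44 the whole interval lay within 2-fold. Those that reached beyond 2-fold were the intervals of Aurkb and Cdc45, on the side of a lower level in the HFD group. The median log2 fold change of the 44 genes was 0.07, beside 0.03 over all probes and 0.04 over all genes tested. Over the 22 genes at or above the median signal of the 44 it was 0.09. Over all 1177 genes of the array at or above that signal it was 0.10.

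The HFD mean was higher for 31 genes and lower for 13, or 70.5% higher, beside 55% of all probes. With quantile normalization of the arrays this split was 23 higher and 21 lower. Both HFD arrays lay above both CD arrays for 15 genes (34.1%), beside 19.5% of all probes. Of the 22 genes at or above the median signal of the 44 it held for 9. Among all 1177 genes of the array at or above that signal, which include these 22, the share was near that, at 38.8%. Both HFD arrays lay below both CD arrays for 2 genes, Ccnd1 and Cdkn1a, beside 11.1% of all probes. It held for 0 of the 22 brighter genes, beside 1.27% of the 1177. For 21 genes (47.7%) both HFD arrays lay between the CD arrays, beside 39.2% of all probes, and of the 22 brighter genes it held for 11, beside 48.3% of the 1177.

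**Figure D1:**
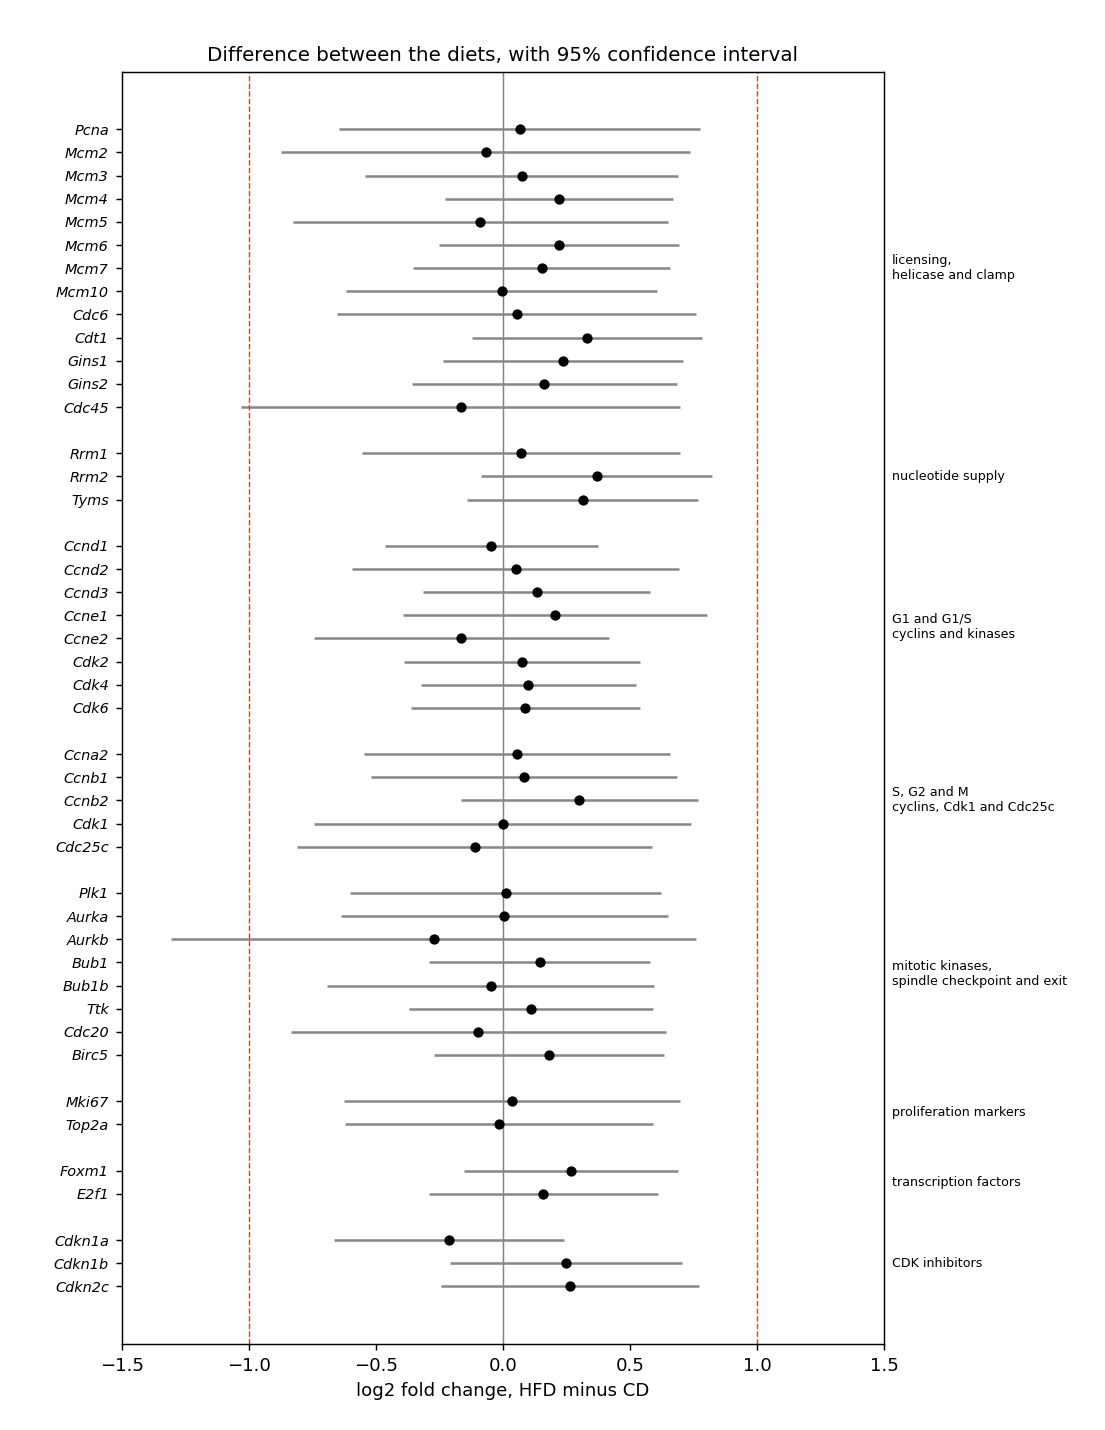
Log2 fold change (HFD minus CD, x axis) of the 44 genes by role, with the limma estimate as a point and its 95% confidence interval as a line; dashed lines mark 2-fold. All 44 intervals include 0, and those of Aurkb and Cdc45 pass the line for a 2-fold lower level.

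Among the 13 genes of origin licensing, the replicative helicase and its clamp, 9 had a higher and 4 a lower HFD mean, and the median over them was 0.07 on the log2 scale. The level of Pcna, the sliding clamp that tethers DNA polymerase, was 6.45 and 7.10 in the CD samples and 6.87 and 6.80 in the HFD samples. Both HFD arrays lay between the CD arrays, and the log2 fold change was 0.07 (SE 0.27). Mcm2, a subunit of the MCM helicase, stood at 3.98 and 4.75 in the CD samples and at 4.34 and 4.25 in the HFD samples (log2 fold change -0.07, SE 0.30). Here too the CD arrays enclosed the HFD arrays. The other helicase subunits were Mcm3, Mcm4, Mcm5, Mcm6 and Mcm7, and Mcm2 to Mcm7 had log2 fold changes between -0.09 (Mcm5) and 0.22 (Mcm6). Mcm4 and Mcm6 had both HFD arrays above both CD arrays, although a second probe of Mcm6 gave a log2 fold change of -0.23.

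Cdt1 delivers the helicase to the origin. Its level was 4.88 and 5.04 in the CD samples and 5.35 and 5.23 in the HFD samples. Both HFD arrays were above both CD arrays, by 0.33 in the means (SE 0.17, adjusted p = 1.00). Cdc45, which joins the helicase when it is activated, had levels of -0.39 and 0.44 in the CD samples and -0.05 and -0.23 in the HFD samples. The HFD arrays fell between the CD arrays, and the log2 fold change of -0.17 (SE 0.33) was smaller than the gap of 0.84 between the CD arrays. Of the remaining genes, Gins1 (0.24) and Gins2 (0.16) encode subunits of the GINS complex, Mcm10 (-0.00) helps to activate the helicase and Cdc6 (0.05) loads it, with the log2 fold change given in parentheses.

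All 3 genes of nucleotide supply had a higher HFD mean, and their median log2 fold change was 0.32. Rrm2, the regulatory subunit of ribonucleotide reductase that is made in S phase, had levels of 6.14 and 6.34 in the CD samples and of 6.61 in both HFD samples. The HFD arrays were above both CD arrays and had the same level to 2 decimals. The log2 fold change was 0.37 (95% confidence interval -0.08 to 0.82, adjusted p = 1.00), the highest of the 44. Tyms, thymidylate synthase, had levels of 4.62 and 4.82 in the CD samples and 5.05 and 5.02 in the HFD samples, again without overlap (log2 fold change 0.32, SE 0.17). A second probe of Tyms, less bright, had its HFD arrays (4.28 and 4.24) between its CD arrays (3.91 and 4.37), with a log2 fold change of 0.12. Rrm1, the large subunit of the reductase, had its HFD arrays (4.94 and 4.87) between its CD arrays (4.57 and 5.10), with a log2 fold change of 0.07.

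In the group of G1 cyclins and kinases, 6 of 8 genes had a higher and 2 a lower HFD mean. The D cyclins connect growth signals to the cycle. Ccnd1 had levels of 3.98 and 4.004 in the CD samples and of 3.97 and 3.93 in the HFD samples. Its HFD arrays were both lower, but the log2 fold change was -0.05 (SE 0.16). Ccnd2 stood at 5.76 and 5.21 in the CD samples and at 5.52 and 5.55 in the HFD samples (log2 fold change 0.05, SE 0.24). CD replicate 1 was the highest array for this gene and CD replicate 2 the lowest. Ccnd3 had levels of 6.69 and 6.87 in the CD samples and 6.91 in both HFD samples, which lay just above the CD arrays (log2 fold change 0.13, SE 0.17).

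Cdk4, the main kinase partner of the D cyclins, varied little among the arrays, with levels of 5.93 and 5.86 in the CD samples and of 6.00 and 5.99 in the HFD samples. The HFD arrays were both higher, by 0.10 in the means (SE 0.16, 95% confidence interval -0.32 to 0.52). Cdk6, which shares this role, had levels of -2.27, -2.35, -2.31 and -2.13 in the order CD replicate 1, CD replicate 2, HFD replicate 1 and HFD replicate 2. Its groups overlapped, and the log2 fold change was 0.09 (SE 0.17). Ccne2, an E cyclin of the G1/S transition, gave a low signal, with levels of -3.53 and -3.09 in the CD samples and -3.41 and -3.54 in the HFD samples. The groups overlapped (log2 fold change -0.16, SE 0.22). The other E cyclin, Ccne1, and the kinase Cdk2 had log2 fold changes of 0.20 and 0.08.

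Of the 5 genes for S, G2 and M cyclins, Cdk1 and Cdc25c, 3 had a higher and 2 a lower HFD mean. Cdk1 is the kinase that starts mitosis. Its level was 2.45 and 3.15 in the CD samples and 2.82 and 2.78 in the HFD samples, which lay between them (log2 fold change -0.00, SE 0.28). Ccnb1, the main cyclin partner of Cdk1, stood at 4.36 and 4.85 in the CD samples and at 4.65 and 4.73 in the HFD samples, also between (log2 fold change 0.08, SE 0.23). The second B cyclin differed from this pattern. Ccnb2 had levels of 5.32 and 5.54 in the CD samples and of 5.69 and 5.77 in the HFD samples, with both HFD arrays higher (log2 fold change 0.30, SE 0.18, adjusted p = 1.00). Ccna2, the cyclin of S phase and G2, had a log2 fold change of 0.06, and Cdc25c, a phosphatase that activates Cdk1, one of -0.11. A second probe of Ccna2 had both HFD arrays (5.37 and 5.33) above both CD arrays (4.94 and 5.10), with a log2 fold change of 0.33.

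The mitotic kinases, the spindle checkpoint and the genes of mitotic exit had a median of 0.01 for the log2 fold change, and 5 of 8 were higher and 3 lower. Aurkb, the kinase of the chromosomal passenger complex, had the lowest log2 fold change of the 44, -0.27 (SE 0.39). Its level was 2.30 and 3.36 in the CD samples and 2.63 and 2.49 in the HFD samples. CD replicate 2 stood well above the other 3 arrays and CD replicate 1 was the lowest, so the groups overlapped. Birc5 (survivin), of the same complex, had a log2 fold change of 0.18 with both HFD arrays higher. The spindle checkpoint genes Bub1, Bub1b and Ttk had log2 fold changes of 0.14, -0.05 and 0.11, and Cdc20, which activates the anaphase-promoting complex, one of -0.10. Plk1 and Aurka, kinases of the spindle poles, had values of 0.01 each.

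Mki67 and Top2a are the common markers of dividing cells. Mki67 had levels of 6.83 and 7.40 in the CD samples and of 7.11 and 7.20 in the HFD samples. Top2a, the topoisomerase that untangles replicated DNA, had levels of 4.86 and 5.35 in the CD samples and of 5.11 and 5.06 in the HFD samples. For both genes the HFD arrays lay between the CD arrays. The log2 fold changes were 0.04 (95% confidence interval -0.62 to 0.70) and -0.02 (-0.62 to 0.59), so that for Mki67 any fold between 0.649 and 1.62 lay within the interval.

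On their brightest probes, both transcription factors had both HFD arrays above both CD arrays, which held for 19.5% of all probes. Foxm1, which drives genes of G2 and mitosis, had levels of 2.42 and 2.47 in the CD samples and of 2.71 and 2.72 in the HFD samples. The arrays of each diet agreed closely, and the log2 fold change was 0.27 (SE 0.16, adjusted p = 1.00). A second probe of Foxm1, less bright, gave a log2 fold change of -0.33, so its direction is not settled. E2f1, an activator of S phase genes, had levels of 2.19 and 2.37 in the CD samples and of 2.42 and 2.46 in the HFD samples (log2 fold change 0.16, SE 0.17).

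On their brightest probes, the 3 inhibitors of cyclin-dependent kinases did not share 1 direction. Cdkn1a (p21), a target of p53, had levels of 0.48 and 0.29 in the CD samples and of 0.18 and 0.16 in the HFD samples. Both HFD arrays were lower (log2 fold change -0.21, SE 0.17, adjusted p = 1.00), whereas a second, dimmer probe that was not well above background on every array gave 0.34. With all its probes averaged, Cdkn1a gave 0.06, so its direction is not settled either. Cdkn1b (p27) stood at 2.80 and 2.59 in the CD samples and at 2.93 and 2.96 in the HFD samples, and Cdkn2c (p18) at 1.89 and 2.19 and at 2.36 and 2.25. The HFD arrays were higher for both, with log2 fold changes of 0.25 (SE 0.17) and 0.27 (SE 0.19) that did not pass the test.

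**Figure D2:**
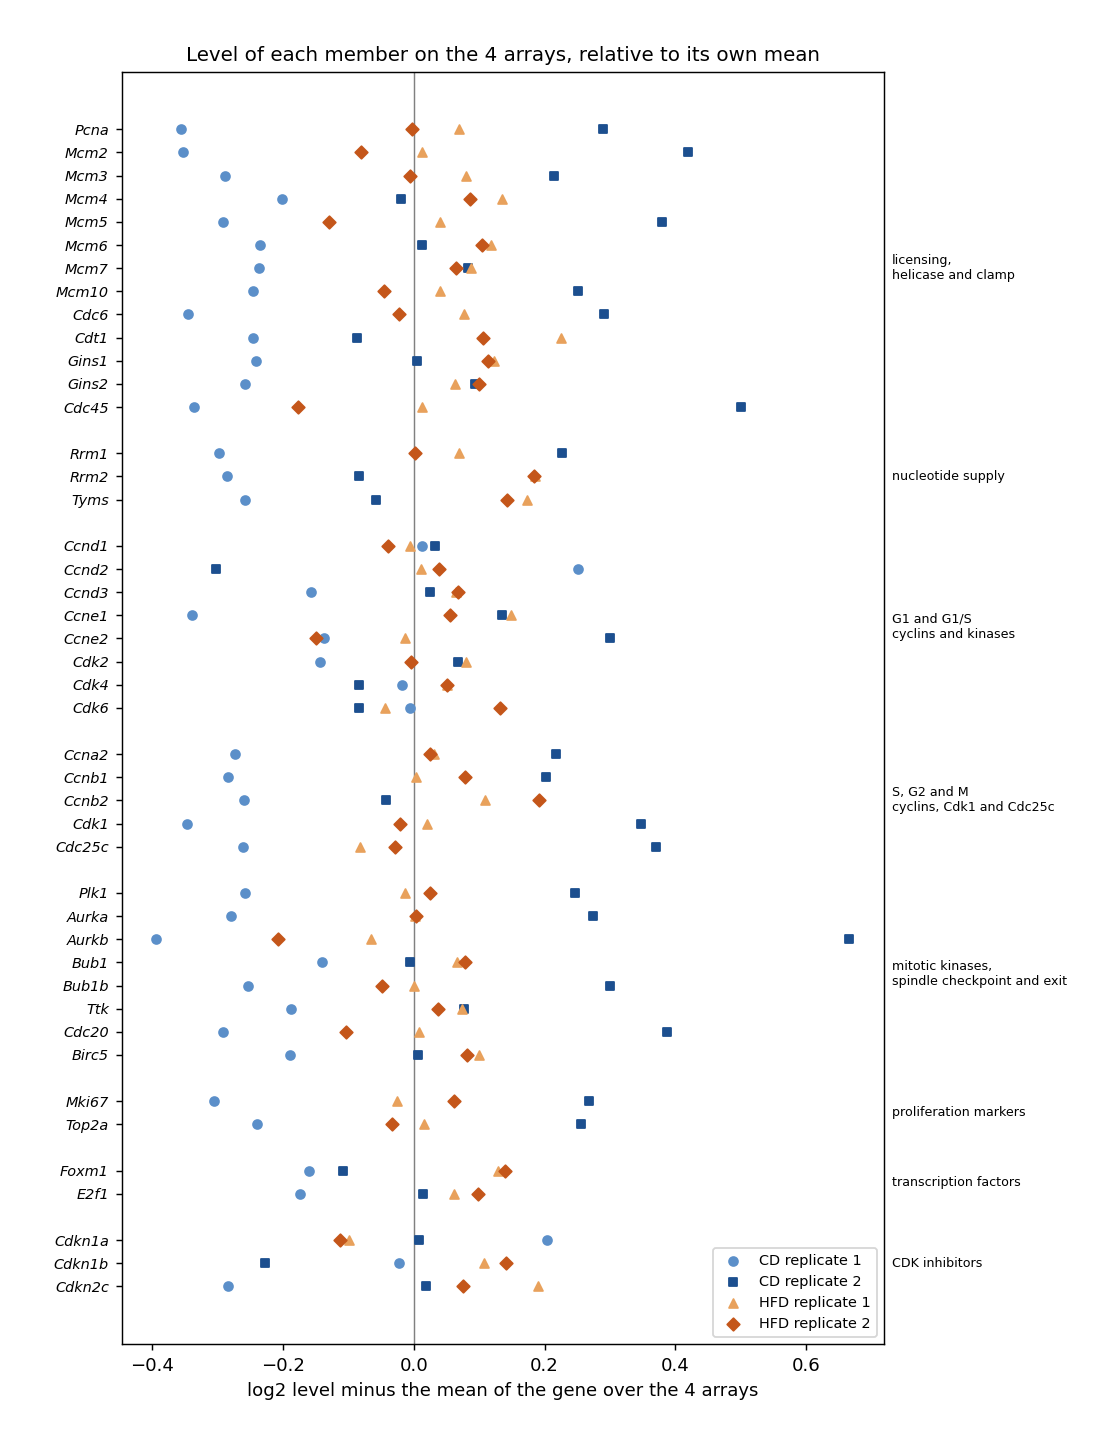
Level of each of the 44 genes on the 4 arrays as the log2 difference from the mean of the gene (x axis), by role. CD replicate 1 (light circles) lies on the left for most genes and CD replicate 2 (dark squares) on the right, with the HFD arrays close together between or just above them. Ccnd2, Cdk4, Cdk6, Cdkn1a and Cdkn1b have CD replicate 2 to the left of CD replicate 1.

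The largest differences for these genes lay between the CD arrays. CD replicate 2 was above CD replicate 1 for 39 of 44 genes, beside 52.6% of all probes and 55.5% of all genes. Of the 22 brighter genes it was above for 20, beside 85.6% of the 1177 bright genes. The median of CD replicate 2 minus CD replicate 1 was 0.34 on the log2 scale, beside 0.03 over all probes. Over the 22 brighter genes this median was 0.40, beside 0.25 over the 1177. Without regard to sign, the gap had a median of 0.39 between the CD arrays and of 0.05 between the HFD arrays, and it was the larger between the CD arrays for 42 of 44 genes. For 32 of 44 genes the CD gap was also larger than the difference between the diets. CD replicate 2 was at least 1.2-fold above CD replicate 1 for 25 genes, beside 30.7% of all probes. Among the 22 brighter genes this held for 12, beside 48.7% of the 1177 bright genes.

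The gap between the CD arrays was uneven among the roles. All 33 genes outside the G1 cyclins, their kinases and the CDK inhibitors were higher on CD replicate 2, with a median gap of 0.50. With quantile normalization the values were 27 of 33 and 0.28. The array-wide share was 55.5% of all genes tested, with a median gap of 0.06, and 85.6% of the 1177 bright genes, with 0.25. The gap was 1.06 for Aurkb, 0.84 for Cdc45, 0.77 for Mcm2 and 0.69 for Cdk1, and 0.05 for Foxm1, the smallest of the 33. Of the G1 cyclins and kinases, 5 of 8 were higher on CD replicate 2, with a median gap of 0.10, and among them Ccne1 (0.47), Ccne2 (0.44) and Cdk2 (0.21) were higher. Of the 3 D cyclins, Cdk4 and Cdk6 taken alone, 2 of 5 were higher on CD replicate 2, with a median gap of -0.07 and the lowest value at Ccnd2 (-0.55), but this median was 0.02 with normexp and 0.10 with median centring, which adds 0.17 to the gap of every probe. Of the CDK inhibitors 1 of 3 was higher, with a gap of 0.30 for Cdkn2c, -0.19 for Cdkn1a and -0.21 for Cdkn1b, and 2 of 3 were higher when all probes of each gene were averaged. The median gap of the 33 genes was 0.28 to 0.66 over these settings, above those of the other 2 sets under each of them. Over the HFD arrays, the gap of replicate 2 minus replicate 1 lay between -0.19 (Cdc45) and 0.18 (Cdk6), and 14 of 44 genes were higher on HFD replicate 2. The number of genes higher on CD replicate 2 was 32 of 44 with quantile normalization and 40 or 41 with the other settings tried for it.

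**Figure D3:**
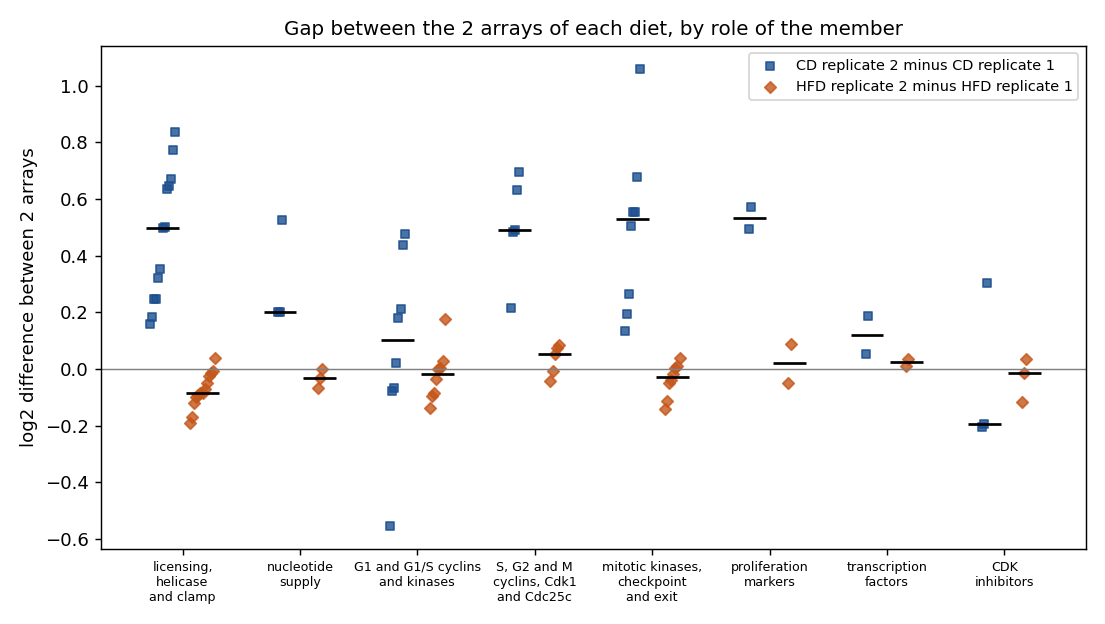
Log2 difference between the arrays of each diet (y axis) for the 44 genes by role, CD replicate 2 minus CD replicate 1 as squares and HFD replicate 2 minus HFD replicate 1 as diamonds, with black lines at the medians. The squares of the first role have a median of 0.50 and those of the CDK inhibitors one of -0.19, while all diamonds lie between -0.19 and 0.18.

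With 1 CD array left out, the comparison of the diets changed with the array that remained. Without CD replicate 1, the median log2 fold change of the 44 genes was -0.044, and limma gave 6 of 44 genes an unadjusted p under 0.05, beside 20.8% of all probes in the same fit. Mcm2, Cdc45, Cdc25c, Aurkb and Cdc20 were lower in the HFD group in that fit (8.88% of all probes were called lower), and Cdkn1b was higher (12% of all probes). Without CD replicate 2, the median was 0.28, and 9 of 44 genes passed the same threshold, beside 14.8% of all probes. All 9 were higher in the HFD group, namely Pcna, Mcm6, Cdt1, Gins1, Rrm2, Tyms, Ccne1, Ccnb2 and Cdkn2c, beside 6.06% of all probes called higher and 8.72% called lower. Without CD replicate 1, both HFD arrays lay above the remaining CD array for 17 of 44 genes, beside 43.9% of all probes, and below it for 23, beside 38.8%. Without CD replicate 2 they lay above it for 39 genes, beside 47% of all probes, and below it for 3, beside 34.4%. No gene passed in both fits. The lone CD array is assumed in these fits to vary like the HFD group.

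Further probes were available for 20 of the 44 genes. The 25 other probes were all tested, 0 had an unadjusted limma p under 0.05, and their log2 fold changes ran from -0.33 to 0.34 with a median of 0.00. For 23 of 25 the log2 fold change lay within 0.5 of that of the brightest probe, the exceptions being the probes of Foxm1 and Cdkn1a given above. All 44 genes lay between -0.27 and 0.37, so a tolerance of 0.5 is wide and its count shows little agreement. The sign differed from that of the brightest probe for both of these exceptions and for probes of Ccnb1, Ccnd2, Cdk4, Mcm3, Mcm6 and Ttk. The gap between the CD arrays had the sign of the brightest probe for 23 of 25, the exceptions being a probe of Cdkn1a and a probe of Cdk4.

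Genes of the same pathways that were not among the 44 were read from 4 further lists. Of 40 other replication genes, 0 had an unadjusted limma p under 0.05 and 32 had a higher HFD mean, beside 55% of all probes. The median log2 fold change was 0.03 over all probes and 0.11 over these 40 genes. The brightest of them were Fen1, which trims Okazaki fragments (levels 5.52 and 5.80 in the CD samples, 5.97 and 5.93 in the HFD samples), and Uhrf1, which guides maintenance of DNA methylation (5.39 and 5.78, then 5.65 and 5.65). Of 40 other mitotic genes, 0 passed, 27 were higher, beside the same 55%, and the median was 0.16. Ube2c, an enzyme of the anaphase-promoting complex, and Incenp, of the chromosomal passenger complex, were the brightest, with log2 fold changes of 0.02 and 0.16. CD replicate 2 was above CD replicate 1 for 39 of the 40 replication genes and for 36 of the 40 mitotic genes. The same held for 55.5% of all genes tested and for 85.6% of the 1177 bright genes.

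Of 21 other CDK inhibitors, E2F factors and pocket proteins, 1 had an unadjusted limma p under 0.05, beside 3.35% of all probes. It was Cdkn2a, the locus of p16 and p19Arf, with levels of -3.99 and -4.16 in the CD samples and of -2.88 and -3.19 in the HFD samples. Both HFD arrays were higher at a low signal, and the log2 fold change was 1.04 (SE 0.20, adjusted p = 1.00). The brightest genes of that list, Cdkn1c (p57) and E2f2, had log2 fold changes of 0.05 and -0.02. Of 16 genes for p53 and its targets 0 passed, with 7 higher and 9 lower and a median of -0.03. Mdm2, the ubiquitin ligase of p53, and Bax, which promotes cell death, were the brightest, with log2 fold changes of 0.16 and 0.19.

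Markers of cell types in the fetal liver were set beside these values. All 14 erythroid and all 14 hepatoblast markers with a probe were well above background on every array, led by Hba-a1, Hbb-bt and Slc4a1 and by Serpina1a, Alb and Afp. Since most spots passed that mark, it alone does not tell tissues apart. The level of Hba-a1, an alpha globin, was 9.07 and 9.65 in the CD samples and 9.22 and 9.33 in the HFD samples. That of Alb, albumin, was 8.14 and 9.06, then 8.53 and 8.54. Summed over the list, the linear level of the 44 genes was 1292 and 1642 in the CD samples and 1588 and 1569 in the HFD samples. The erythroid sum was 1489 and 2136 in the CD samples and 1722 and 1857 in the HFD samples, and the hepatoblast sum 1366 and 2103, then 1658 and 1688. The sum of the 7 stellate and mesenchymal markers, led by Col1a2, Col1a1 and Col3a1, ran the other way, with 461 and 227 in the CD samples and 325 and 360 in the HFD samples.

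CD replicate 2 was thus above CD replicate 1 for the erythroid, hepatoblast and cell cycle sums and below it for the mesenchymal sum, with both HFD arrays between. By gene, 13 of 14 erythroid and 14 of 14 hepatoblast markers were higher on CD replicate 2, with median gaps of 0.52 and 0.45. Of the mesenchymal markers 1 of 7 was higher, with a median gap of -0.91. Higher on CD replicate 2 were also 55.5% of all genes tested and 85.6% of the 1177 bright genes, with median gaps of 0.06 and 0.25. The median gap was 0.46 for macrophage markers (Cd5l, Csf1r and Adgre1 the brightest), 0.82 for megakaryocyte markers (Pf4, Ppbp and Gp9), 0.69 for granulocyte markers (S100a9, Mpo and S100a8) and 0.03 for endothelial markers (Stab2, Kdr and Cdh5). Between the diets, the median log2 fold change was 0.17 for erythroid, 0.00 for hepatoblast and 0.05 for mesenchymal markers, and 0 genes of these lists had an unadjusted limma p under 0.05. The part of cell composition in the levels of the 44 genes was not tested.

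Markers of tissues outside the liver also carried signal. Of 8 neuronal markers, led by Stmn2, Snap25 and Tubb3, 8 were well above background on every array. Of these, 3 (Tubb3, Dcx and Map2) had an unadjusted limma p under 0.05, beside 3.35% of all probes. Both HFD arrays lay below both CD arrays for 5 of the 8, beside 11.1% of all probes. The median log2 fold change of the 8 was -0.68, with summed levels between 12.3 and 23.0. Of 10 gonad, adrenal and kidney markers, led by Foxl2, Cyp17a1 and Wt1, 9 were well above background on every array. Among the 7 tested, Cyp11a1 and Nr5a1 had an unadjusted limma p under 0.05, beside the same 3.35% of all probes. The median log2 fold change of these 7 was 0.79, and the highest was 1.87 (Cyp11a1). For 4 of the 7 both HFD arrays lay above both CD arrays, beside 19.5% of all probes. Of 12 trophoblast markers, led by Psg23, Gcm1 and Tpbpa, 11 had a probe and 10 were well above background on every array. Only 4 passed the filters on low and variable signal, so most of this list was not tested. Their median log2 fold change was -0.21, with values from -0.92 to 0.55, and 3 of the 4 were lower in the HFD group. For 1 of the 4 both HFD arrays lay below both CD arrays, beside 11.1% of all probes. No marker of these 3 lists had an adjusted p under 0.05. The part of such tissue in the levels of the 44 genes was not tested.

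**Figure D4:**
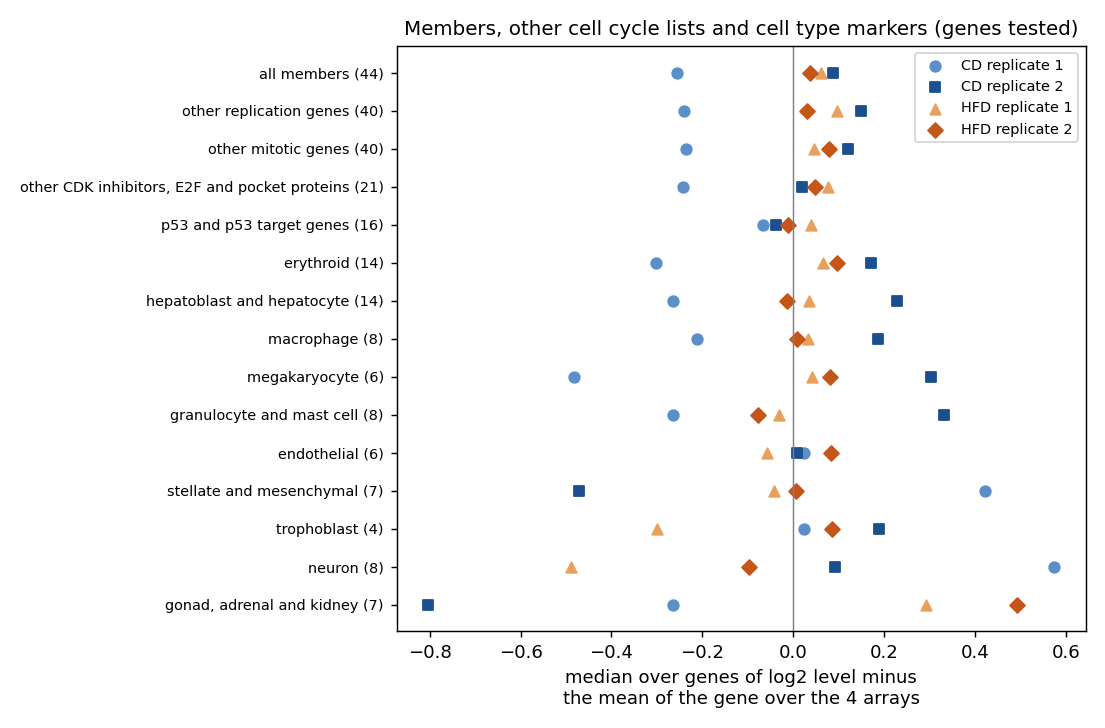
Median over the tested genes of each list of the log2 level minus the mean of the gene (x axis) on each of the 4 arrays, for the 44 genes (top), 4 further lists of cell cycle and p53 genes and 10 lists of cell type markers, with the number of genes in brackets. The 44 genes, the replication and mitotic lists and the erythroid and hepatoblast markers have CD replicate 1 lowest and CD replicate 2 highest, and the mesenchymal markers have the opposite order.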

How the data were processed

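The labels gave the groups and the replicate numbers, and the study's methods the age of the fetuses. The authors hybridised Cy3-labelled cRNA to 1-colour Agilent arrays and deposited the intensity of each spot after background subtraction and detrending in Agilent Feature Extraction 11.0.1.1 (named in the submitters' processing notes), with no scaling between arrays. They also deposited the median brightness of each spot and of its local background, and flags for outlier, saturated and well-above-background spots, which are scores of 0 or 1. A second file that the authors deposited holds normalized signal values of 41471 probes. Each of its columns equalled the intensity divided by 1 constant (702 to 1068), within 0.1% for 100% of probes with 1 spot. Columns of other series numbered 0.

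Log2 values were computed from the deposited intensity. Outlier spots were left out, spots of a probe were averaged, and each array was scaled by subtracting the 75th percentile of its non-control probes. Of 56596 probes with usable spots, 14980 were left out because some array had them below its 20th percentile, and 284 with a CV over 50% in both groups, and 41332 were tested. Both filters follow the study's methods, except that the CV was taken on the linear scale and the methods take it on the log scale (an alternative here, with 41614 probes tested). Probes were named through RefSeq transcripts of GRCm38.p6, which gave 32994 of 56605 probes 1 symbol. HFD was compared with CD in R 4.3.3 by lmFit and eBayes of limma 3.58.1 (4 arrays, no covariates) with Benjamini-Hochberg adjustment over all probes, after the fit had been tested on simulated data. Tables were made in Python 3.11.15 (pandas 2.3.3, numpy 2.4.6) and plots with matplotlib 3.10.9. The number of arrays limits the precision.

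The genes, lists and tests were chosen with earlier results of these data known, and lists are described by counts and medians without a test. Array levels are given for the 4 highest and the 4 lowest log2 fold changes, the 4 largest gaps between the CD arrays, Mki67, Top2a, Pcna, Mcm2, Cdk1, Ccnb1, Foxm1, E2f1, the D cyclins, Cdk4, Cdk6 and the CDK inhibitors. Of the pathway lists the genes with an unadjusted p under 0.05 and the 2 brightest are named, and of the marker lists the 3 brightest. Rrm1 and others given as examples were chosen after their values were seen. Hbb-bs, Ahsp, Tf and Prl2c2 had no probe matched.

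The alternatives were quantile normalization, median centring, normexp background correction with an offset of 50 (on median brightness, since no column used here holds the mean), the deposited table, other filters on dim or variable probes, averaging all probes of each gene, the methods' t-test, the replicate number as a block and leaving out each array. Slide and scan could not be used as a block, as there was 1 of each.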

Additional observations from a re-analysis of the deposited data

How the results depend on the processing

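With 2 arrays a group, 1 array decides much of each value. The median log2 fold change of the 44 genes was 0.07. It was 0.00 with quantile normalization, 0.04 with averaging all probes of each gene, 0.09 with median centring, 0.08 with normexp, and 0.07 with the deposited table and with the replicate block. Leaving out each array in turn gave -0.044 (without CD replicate 1) to 0.28 (without CD replicate 2). The number of genes with an unadjusted p under 0.05 was 0. It was 1 with normexp (Rrm2), 1 with the methods' t-test (Foxm1), 0 with the replicate block, and 0 to 9 over the fits without 1 array. Genes with both HFD arrays higher numbered 15, or 11 to 15 over the other settings and 17 to 39 with 1 array left out. Genes with both HFD arrays lower numbered 2, or 1 with median centring, 1 with averaging all probes of each gene, and 2 to 23 with 1 array left out. The counts with 1 array left out compare 2 arrays with 1, which share a side more often by construction, and are not comparable with 2 against 2.

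The log2 fold change of a single gene changed sign for 8 of 44 genes with quantile normalization, 3 with median centring, 3 with normexp, 4 with averaging of probes, 14 without CD replicate 1, 12 without CD replicate 2 and 5 without HFD replicate 2, and for 0 of 44 with the deposited table, the other filters, the replicate block or without HFD replicate 1. The cause was not tested. The labels do not say whether CD and HFD arrays of the same replicate number were paired. The correlation of their deviations from the group means was -0.10. With 2 arrays a group each diet gives 1 contrast, so this value cannot decide it. The replicate block changed no call. The count of genes higher on CD replicate 2 was recomputed under settings chosen after seeing the data.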
